A study of Mus musculus with 12 samples.

Results

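The genes of the mitochondrial DNA were followed in the livers of fed and fasted mice. They are the 37 genes that the count table places on the mitochondrial chromosome (MT), out of 48795 genes in all. They comprise 13 protein-coding genes, 2 ribosomal RNA genes and 22 transfer RNA genes. The livers came from 12 female mice on normal chow, littermates matched for age at 4 months, that carried the neurotensin gene (Nts+/+) or were knockouts (Nts-/-). The mice either had free access to food or went without it for 22 h, which gave 4 groups of 3 mice. With the Nts+/+ label, mice 254, 257 and 323 were fed and mice 265, 282 and 322 fasted. With the Nts-/- label, the fed mice were 277, 303 and 319 and the fasted mice 284, 290 and 295. All 12 samples carry the batch label 2015. Library totals lay between 21999656 and 45273081 counts. The Nts gene itself had 0 counts in the 6 libraries labelled Nts+/+ and between 4 and 46 counts in the 6 libraries labelled Nts-/-. Nts was thus counted only under the knockout label, but counts this few do not show whether the labels are right or wrong. The cause was not tested. Every genotype direction below is therefore that of the deposited labels, and the groups are called the libraries labelled Nts+/+ and Nts-/-.

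Mitochondrial DNA is a small circle held in many copies in each cell. Both of its strands are transcribed into long RNAs that carry several genes each, and the transfer RNAs that lie between the other genes are cut out to free the messenger and ribosomal RNAs. The proteins made from these messengers are core subunits of complexes I, III, IV and V of the oxidative phosphorylation chain, whose other subunits are encoded in the nucleus. The ribosomal RNAs form the mitochondrial ribosome, which translates only these messengers. Of the 37 genes, 28 are read from the heavy strand and 9 from the light strand, the latter being mt-Nd6 and 8 transfer RNA genes. In liver, a tissue rich in mitochondria, the products serve the respiration that fat oxidation feeds during fasting.

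Parts of the mitochondrial genome also exist as copies in the nuclear chromosomes, and the counts below turn on them. Among the table's other genes, 11 matched a mitochondrial gene over at least 100 bases at 95% identity or more. Of these, 7 lie side by side on chromosome 1 of GRCm38 from 24611535 to 24616197 and hold 99.99% of all counts on copies. As annotated, Gm10222 has the same 294 bases as the first 294 of the 297 bases of mt-Nd4l, a complex I subunit. Its annotated transcript ends just before the stop codon. The sequence below is mt-Nd4l at chrM:9877-10173 on the plus strand, with capitals marking the bases beyond the end of the annotated copy. Mitochondrial coordinates are equal in GRCm38 and in the GENCODE vM39 annotation of GRCm39, from which all sequences here were read.
mt-Nd4l: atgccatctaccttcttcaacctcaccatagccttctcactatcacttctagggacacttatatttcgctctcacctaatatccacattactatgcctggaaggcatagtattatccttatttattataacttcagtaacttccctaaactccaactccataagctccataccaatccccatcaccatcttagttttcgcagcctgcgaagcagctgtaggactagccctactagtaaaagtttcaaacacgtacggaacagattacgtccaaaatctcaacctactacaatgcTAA

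The copies Gm28661 of mt-Co2 (681 bases), Gm10925 of mt-Atp6 (678 bases) and Gm28437 of mt-Co3 (783 bases) were likewise identical to their mitochondrial gene. Gm28439 matched the first 876 bases of mt-Nd4 without a difference. The copies of mt-Nd3 and mt-Co1 each differed at 1 base, shown in capitals, with positions counted from 1 at the 5′ end of the mitochondrial gene. Between mt-Nd3 and Gm28438 it is T3C, over 345 aligned bases. Between mt-Co1 and Gm29216 it is A1066T, over 483 aligned bases. The windows lie at chrM:9459-9476 and chrM:6390-6408 on the plus strand.
mt-Nd3: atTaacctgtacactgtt
Gm28438: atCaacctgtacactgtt
mt-Co1: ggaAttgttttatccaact
Gm29216: ggaTttgttttatccaact

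Mitochondrial genes also overlap each other, which limits how reads can be divided. The messengers of mt-Atp8 and mt-Atp6, both complex V subunits, share 43 bases at chrM:7927-7969, from the start codon of mt-Atp6 to the stop codon of mt-Atp8 (capitals). The ends of mt-Nd5 and mt-Nd6 share 14 bases at chrM:13552-13565 on opposite strands, with each stop codon in capitals. Whether the counting used the strand is not given in the sources used here, and without strand the reads of mt-Nd6 cannot be told apart from antisense reads of the long heavy-strand RNA that spans it.
mt-Atp8/mt-Atp6: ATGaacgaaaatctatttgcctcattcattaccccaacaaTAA
mt-Nd5: ttaatctcgagTAA
mt-Nd6: ttactcgagatTAA

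The counts of these genes were estimated by the authors, who divided reads that match several genes between them. All 13 protein-coding and both ribosomal RNA genes passed the filter on low counts, so 15 of the 37 genes were tested. The 22 transfer RNA genes, 59 to 75 bases long, did not pass it. Of them, 19 had 0 counts in every mouse. A count of 0 allows up to 3 counts, or between 0.0663 and 0.136 CPM (counts scaled to a library total of 1e6) depending on the library. mt-Ts1, a serine transfer RNA, had 12 counts over 6 mice, and mt-Tn and mt-Ty had 1 count each. All 6 libraries labelled Nts-/- and 1 of 6 labelled Nts+/+ had at least 1 transfer RNA count, with 12 and 2 counts in total. The share of library counts on these genes did not pass the threshold between genotype labels after correction over 10 values (exact permutation test of 6 against 6 mice, two-sided, p = 0.0130, adjusted p = 0.130), and 1 mouse (319) held 6 of the 14 counts.

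Levels were compared between genes as TMM-normalized CPM (CPM of a library's total after scaling it by its TMM factor) per kilobase, given as the mean ± SD over all 12 mice. On the mitochondrial rows alone, mt-Co1, the catalytic subunit of complex IV, stood highest with a level of 8395 ± 2551 (SD, n = 12) and was above the next gene in all 12 mice. mt-Cytb, the only mitochondrial subunit of complex III, had 4663 ± 1441 and was above mt-Nd2 (4188 ± 1329) in 9 of 12 mice, so their order was not fixed. The complex I genes mt-Nd1 and mt-Nd4 followed with levels of 3642 ± 1170 and 2971 ± 793. mt-Rnr1 and mt-Rnr2, the ribosomal RNAs of the small and large subunit, came last with levels of 251 ± 110 and 208 ± 67.5. mt-Rnr1 was above mt-Rnr2 in only 7 of 12 mice. The authors' methods do not name how RNA was selected for the libraries. The level of ribosomal beside messenger RNA in these counts need therefore not be that in the tissue.

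The copies changed this order. Over all mice, counts on the 11 copies came to 5043605, beside 13038368 on the 13 protein-coding genes. They made up between 24.5% and 32.9% of the sum of both in a mouse. Of the counts on mt-Co2 and its copies together, 15.3% stood on the mitochondrial row. The corresponding share was 24.8% for mt-Atp6, 30.9% for mt-Co3, 36.4% for mt-Nd3, 32.1% for mt-Nd4l, 89.1% for mt-Co1 and 99.7% for mt-Nd4. When the counts of copies were added to the matching mitochondrial gene, mt-Co1 (9422 ± 2850 per kilobase, SD, n = 12), mt-Atp6 (8508 ± 1845), mt-Co3 (7688 ± 1387) and mt-Co2 (7212 ± 2238) were the highest 4 genes. mt-Co1 was then above mt-Atp6 in 9 of 12 mice and mt-Atp6 above mt-Co3 in 9 of 12. mt-Co2 was above mt-Cytb in all 12.

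**Figure D1:**
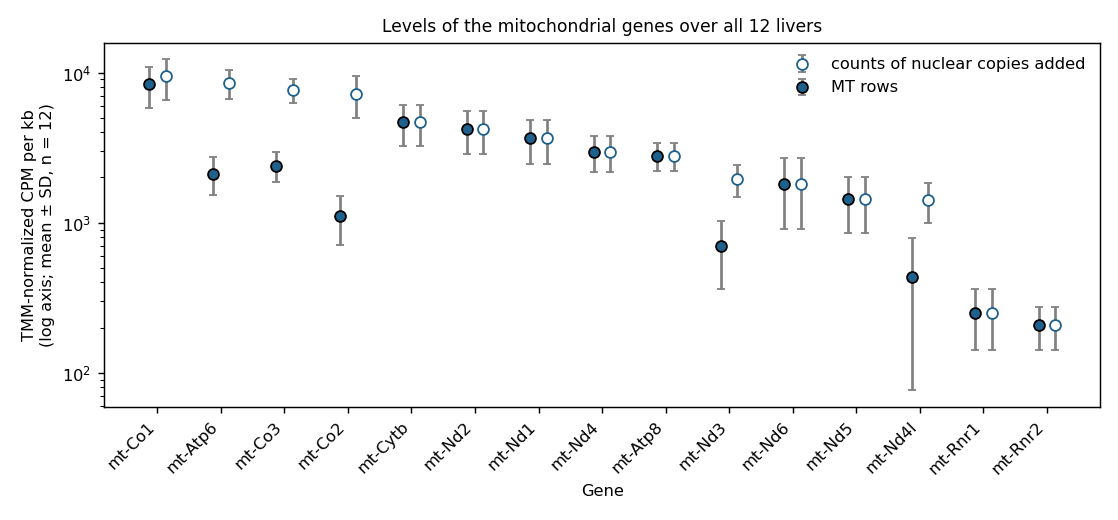
Level of each tested mitochondrial gene, as the mean ± SD over 12 livers of TMM-normalized CPM per kilobase on a log axis, from the mitochondrial rows alone (filled) and with the counts of nuclear copies added (open). mt-Co2 moves from 1106 to 7212 and mt-Atp6 from 2124 to 8508, while genes without an abundant copy stay in place.

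The division between a gene and its copy varied from mouse to mouse for mt-Nd4l and mt-Nd3, the shortest of the genes with a copy. In the libraries labelled Nts+/+, the mitochondrial row of mt-Nd4l held 11.9%, 8.97% and 9.95% of the joint counts in the 3 fed mice and 10.4%, 79.6% and 47.5% in the 3 fasted mice. In those labelled Nts-/-, it held 46.9%, 31.0% and 26.9% when fed and 34.9%, 28.0% and 29.1% when fasted. The SD within groups of the log2 level of mt-Nd4l was 0.98 on its own row and 0.47 once Gm10222 was added. Over all 12 mice and across groups, the highest stood 18.3-fold above the lowest on its own row and 2.62-fold with the copy. Across groups, fed mouse 254 had 1966 of 16563 joint counts on mt-Nd4l, whereas fasted mouse 282 had 12888 of 16191. For mt-Nd3, another complex I subunit, the SD within groups was 0.92 on its own row and 0.31 with the copy added, and the highest of all 12 mice stood 7.88-fold and 2.30-fold above the lowest. The row held as little as 9.89%, 12.1% and 18.1% of joint counts in mice 254, 257 and 265. The other 9 mice held between 35.2% and 48.9%. For mt-Co1 the share stayed between 82.5% and 93.6%.

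**Figure D2:**
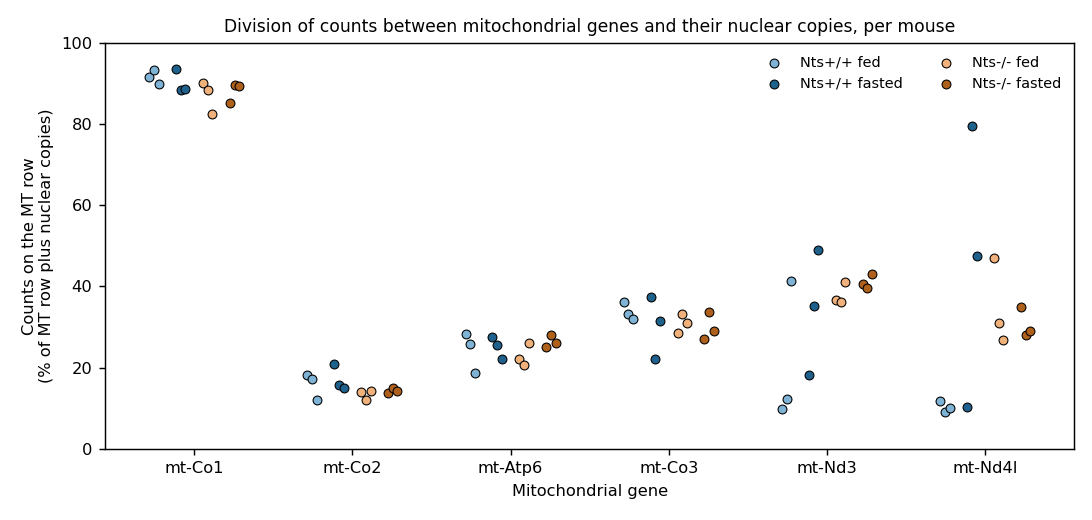
Counts on the mitochondrial row as a percentage of the row plus its nuclear copies, 1 point per mouse, for 6 genes with an abundant copy, coloured by group. The points of mt-Co1, mt-Co2, mt-Atp6 and mt-Co3 lie close together, whereas those of mt-Nd3 and mt-Nd4l spread, with mt-Nd4l running from 8.97% to 79.6%.

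The first comparison asked how fasting changed the mitochondrial genes. Over both genotypes, 3 of the 15 tested genes rose in fasted livers and none fell at an adjusted p under 0.05 (edgeR quasi-likelihood test, Benjamini-Hochberg over 13812 genes). The 3 were mt-Nd2, mt-Nd5 and mt-Nd6, all subunits of complex I. In this comparison 32.8% of all tested genes passed the threshold, so the share of 3 in 15 lay below that background. The median log2 fold change was 0.35 over the 15 genes and -0.0071 over all tested genes. With copies added, it was 0.22 over the 15 genes and the 3 genes past the threshold were mt-Nd2, mt-Nd5 and mt-Nd6 again. Between 2 and 5 genes passed when 1 mouse was left out, with 2 without mouse 282, 277, 284 or 290 and 5 without mouse 323. These are bulk livers, in which fewer cells of a type and less RNA per cell cannot be told apart.

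mt-Nd5 (ENSMUSG00000064367, chrM from 11742 to 13565) encodes a proton-pumping subunit of complex I. It had 2135, 1881 and 1273 TMM-normalized CPM in the fed libraries labelled Nts+/+ (mice 254, 257 and 323) and 2821, 3721 and 2600 in the fasted ones (265, 282 and 322). In the libraries labelled Nts-/- the levels were 1552, 2447 and 1719 when fed (277, 303 and 319) and 3313, 5108 and 2862 when fasted (284, 290 and 295). Every fasted mouse stood above every fed mouse. The log2 fold change was 0.89 ± 0.18 (SE) over both genotypes (adjusted p = 0.00251). It was 0.79 ± 0.26 in the libraries labelled Nts+/+ (adjusted p = 0.04997) and 0.98 ± 0.26 in those labelled Nts-/- (adjusted p = 0.0205). The value over both genotypes stayed between 0.75 and 1.00 and past the threshold when any 1 mouse was left out. The Nts+/+ value was no longer past it without mouse 254, 257, 323, 265, 282, 322, 277, 319 or 284 (adjusted p from 0.0522 to 0.191), nor the Nts-/- value without mouse 277, 319 or 290 (adjusted p from 0.0572 to 0.0973). With library totals in place of TMM the Nts+/+ value missed it too (adjusted p = 0.0732).

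mt-Nd6 (ENSMUSG00000064368, chrM from 13552 to 14070) is the only protein-coding gene of the light strand and encodes a membrane subunit of complex I. Its levels were 776, 564 and 365 TMM-normalized CPM in fed and 645, 1317 and 914 in fasted libraries labelled Nts+/+, in the same order of mice. They were 471, 824 and 806 in fed and 1527, 1959 and 1075 in fasted libraries labelled Nts-/-. The fed and fasted ranges overlapped only through the fasted mouse 265, which lay below 3 fed mice. The log2 fold change was 0.94 ± 0.24 (SE) over both genotypes (adjusted p = 0.0119), 0.75 ± 0.34 in the libraries labelled Nts+/+ (adjusted p = 0.152) and 1.12 ± 0.35 in those labelled Nts-/- (adjusted p = 0.0461). The value over both genotypes stayed between 0.79 and 1.08 and past the threshold when any 1 mouse was left out. The Nts-/- value was no longer past it without mouse 257, 322, 277, 303, 319, 284 or 290 (adjusted p from 0.0629 to 0.154), and with library totals in place of TMM (adjusted p = 0.0802).

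mt-Nd2 (ENSMUSG00000064345, chrM from 3914 to 4951), also a membrane subunit of complex I, had 4602, 4036 and 2135 TMM-normalized CPM in fed and 3972, 6081 and 5284 in fasted libraries labelled Nts+/+. In those labelled Nts-/- it had 2627, 3207 and 3818 when fed and 6466, 5978 and 3964 when fasted. The ranges of fed and fasted mice overlapped. The log2 fold change was 0.64 ± 0.20 (SE) over both genotypes (adjusted p = 0.0242), and neither genotype passed the threshold alone (adjusted p = 0.226 in Nts+/+ and 0.0770 in Nts-/-). Without mouse 282, 277, 284 or 290 the value over both genotypes was no longer past the threshold, with log2 fold changes of 0.57, 0.57, 0.58 and 0.61 and adjusted p of 0.0622, 0.0609, 0.0578 and 0.0537. With library totals in place of TMM it was 0.53 (adjusted p = 0.054). The Nts-/- value passed without mouse 323 or 295 (adjusted p = 0.0309 and 0.0493).

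**Figure D3:**
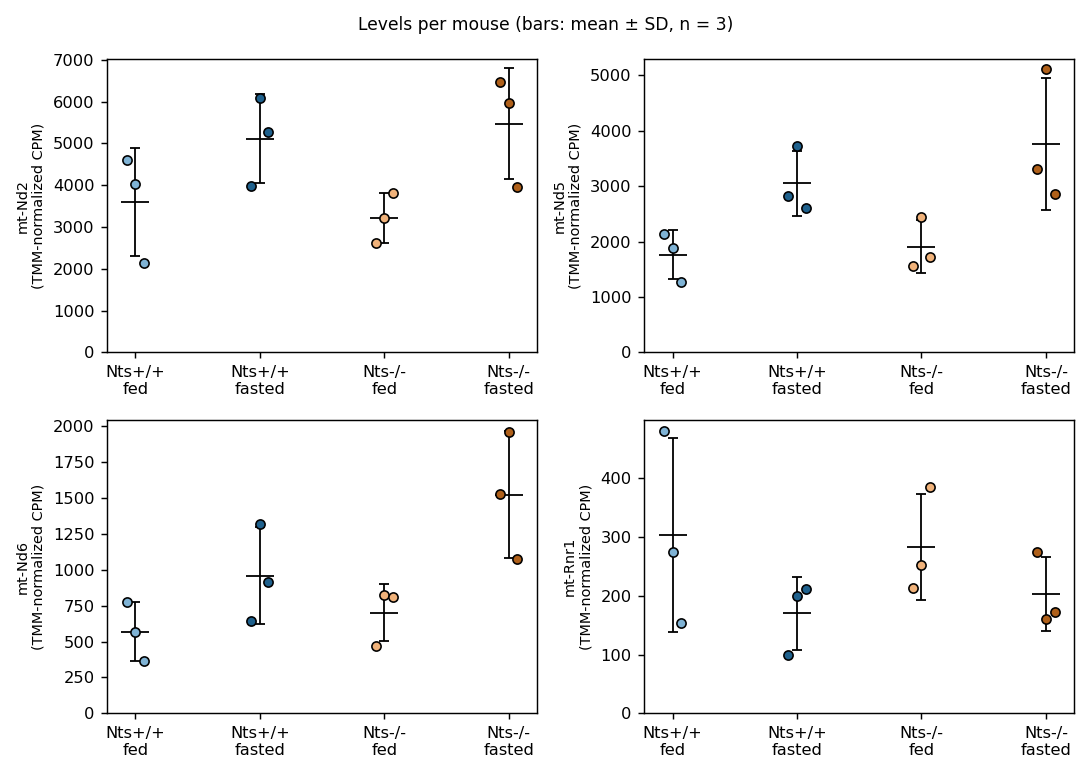
TMM-normalized CPM of mt-Nd2, mt-Nd5, mt-Nd6 and mt-Rnr1 in each mouse by group, with bars for the mean ± SD (n = 3). For mt-Nd5 the 6 fasted mice lie between 2600 and 5108, all above the 6 fed mice at 1273 to 2447.

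The other 4 complex I genes did not pass the threshold. mt-Nd1 had 3014 ± 1087 TMM-normalized CPM in fed and 3957 ± 1022 in fasted livers (SD, n = 6), a log2 fold change of 0.40 ± 0.25 (SE, adjusted p = 0.250). mt-Nd4 had 3568 ± 797 and 4620 ± 1152, a log2 fold change of 0.36 ± 0.17 (adjusted p = 0.131). The other 2 genes are those whose counts swung between row and copy. mt-Nd3 had a log2 fold change of 0.67 ± 0.51 (adjusted p = 0.350) on its own row and 0.36 ± 0.16 (adjusted p = 0.0954) with Gm28438 added. Without mouse 323 the value on its own row was 1.39 (adjusted p = 0.00468).

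mt-Nd4l had the highest log2 fold change of the 15 genes, 1.16 ± 0.50 (SE, adjusted p = 0.114), and it rested on the division with Gm10222. Without mouse 265 it was 1.41 (adjusted p = 0.0118). On its own row the levels were 72.6, 54.3 and 23.2 TMM-normalized CPM in fed and 42.4, 426 and 178 in fasted libraries labelled Nts+/+, with a log2 fold change of 2.11 ± 0.73 (adjusted p = 0.0820), or 2.60 without mouse 265 (adjusted p = 0.0104). With the copy added, the group means were 483 ± 216 and 440 ± 84.1 (SD, n = 3), and the log2 fold change was -0.14 ± 0.32 (adjusted p = 0.805). The row alone therefore gave the opposite direction to the sum. In the libraries labelled Nts-/- the log2 fold change was 0.21 ± 0.70 on its own row (adjusted p = 0.875) and 0.39 ± 0.32 with the copy (adjusted p = 0.433).

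No gene of complexes III, IV or V passed the threshold. mt-Cytb had 4660 ± 1330 TMM-normalized CPM in fed and 6009 ± 1767 in fasted livers (SD, n = 6), a log2 fold change of 0.35 ± 0.20 (SE, adjusted p = 0.216). The log2 fold changes of the 3 complex IV genes were 0.11 ± 0.22 for mt-Co1, 0.12 ± 0.31 for mt-Co2 and -0.03 ± 0.18 for mt-Co3, with adjusted p from 0.734 upward. With copies added they were 0.11 ± 0.22, 0.05 ± 0.24 and 0.09 ± 0.15, so the sign of mt-Co3 depended on its copy. The 2 genes of complex V, the proton-driven ATP synthase, had log2 fold changes of 0.21 ± 0.17 (mt-Atp8, adjusted p = 0.358) and 0.31 ± 0.23 (mt-Atp6, adjusted p = 0.329).

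The ribosomal RNAs had negative log2 fold changes that did not pass the threshold. mt-Rnr1 (ENSMUSG00000064337, chrM from 70 to 1024) had 480, 274 and 154 TMM-normalized CPM in fed and 99.2, 200 and 212 in fasted libraries labelled Nts+/+. It had 213, 252 and 385 in fed and 275, 161 and 173 in fasted libraries labelled Nts-/-. The fed and fasted ranges overlapped in both genotypes, with a log2 fold change of -0.66 ± 0.31 (SE, adjusted p = 0.130). Without mouse 323 it was -0.81 (adjusted p = 0.0406). For mt-Rnr2 it was -0.11 ± 0.27 (adjusted p = 0.797).

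**Figure D4:**
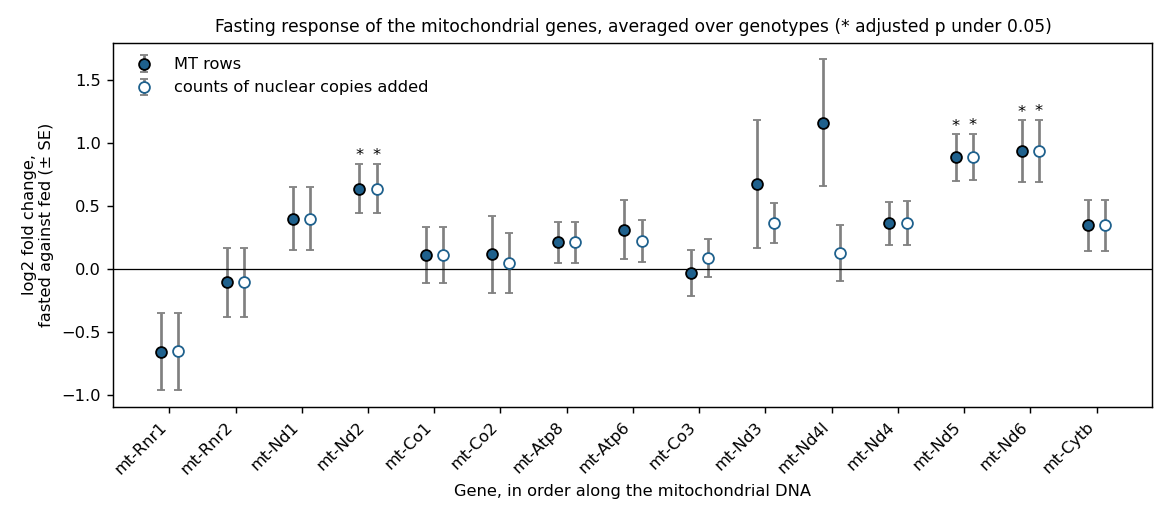
Log2 fold change between fasted and fed livers over both genotypes, with its SE, for the 15 tested genes in their order along the mitochondrial DNA, from the mitochondrial rows (filled) and with the counts of nuclear copies added (open). Stars mark mt-Nd2, mt-Nd5 and mt-Nd6, and adding the copy moves mt-Nd4l from 1.16 to 0.13.

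Along the heavy strand, the 2 ribosomal RNA genes next to the start of transcription had the lowest log2 fold changes. Across the 14 tested heavy-strand genes, Spearman's rho between position and log2 fold change was 0.57 on the mitochondrial rows and 0.45 with copies added. Over the 12 protein-coding genes alone it was 0.31 and 0.12. These genes share the same 12 libraries and are not independent.

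Fasting also altered how the mitochondrial counts were divided among the complexes, which does not depend on the scaling of libraries. Complex I genes took 33.5%, 37.4% and 38.5% of the counts on the 13 protein-coding genes in fed and 40.3%, 48.5% and 47.5% in fasted libraries labelled Nts+/+. In those labelled Nts-/- they took 40.8%, 38.4% and 37.6% when fed and 44.2%, 41.6% and 40.9% when fasted. All 3 fasted mice stood above all 3 fed mice in each genotype. Over both genotypes the share was 43.8% ± 3.49 in fasted and 37.7% ± 2.38 in fed livers (SD, n = 6, exact permutation test, two-sided, p = 0.00433, adjusted over 10 values p = 0.0216).

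Complex IV genes moved the other way. Their share was 48.8%, 44.3% and 42.6% in fed and 41.1%, 32.8% and 34.9% in fasted libraries labelled Nts+/+, and 40.2%, 42.6% and 41.5% in fed and 37.9%, 37.9% and 39.3% in fasted libraries labelled Nts-/-. Over both genotypes it was 37.3% ± 3.01 in fasted and 43.3% ± 2.99 in fed livers (SD, n = 6, exact permutation test, p = 0.00433, adjusted p = 0.0216). Since shares add up to the whole, the rise of one and the fall of the other are not separate results. Neither mt-Cytb, the complex III gene (13.7% ± 1.18 and 13.7% ± 0.978, adjusted p = 0.948 by the exact permutation test), nor complex V (5.14% ± 0.271 and 5.30% ± 0.543, adjusted p = 0.657) passed the threshold.

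mt-Nd6, the light-strand gene, took 2.79% ± 0.533 of these counts in fasted and 1.87% ± 0.315 in fed livers (SD, n = 6, exact permutation test, p = 0.00866, adjusted p = 0.0216). It was between 1.55% and 1.70% in the 3 fed and at 1.78%, 2.98% and 2.70% in the fasted libraries labelled Nts+/+, and between 1.96% and 2.30% when fed and 2.91% and 3.33% when fasted in those labelled Nts-/-. The log2 ratio of ribosomal RNA to protein-coding counts was lower in fasted livers, at -6.45 ± 0.436 against -5.78 ± 0.312 (SD, n = 6, exact permutation test, p = 0.00866, adjusted p = 0.0216). In the libraries labelled Nts+/+ every fasted mouse lay below every fed mouse, but only narrowly. The highest fasted mouse (322) had -5.906 and the lowest fed mouse (257) had -5.904. In those labelled Nts-/- the ranges overlapped.

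As mt-Nd6 is also one of the complex I genes, the 4 shifts are not all separate results. Each of them remained past the threshold with copies added. Complex I genes then took between 26.1% and 30.0% of the counts in the 6 fed mice and between 31.2% and 36.7% in the 6 fasted mice, with no overlap (exact permutation test, p = 0.00216, the smallest that 6 against 6 mice allow, adjusted p = 0.0216). The share of complex IV was 44.8% in fasted and 50.1% in fed livers (adjusted p = 0.0289), that of mt-Nd6 2.05% and 1.31% (adjusted p = 0.0289), and the log2 ratio of ribosomal RNA to protein-coding counts -6.89 and -6.29 (adjusted p = 0.0433), by the same exact permutation test. Within 1 genotype, 3 mice against 3 cannot give a p below 0.1.

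**Figure D5:**
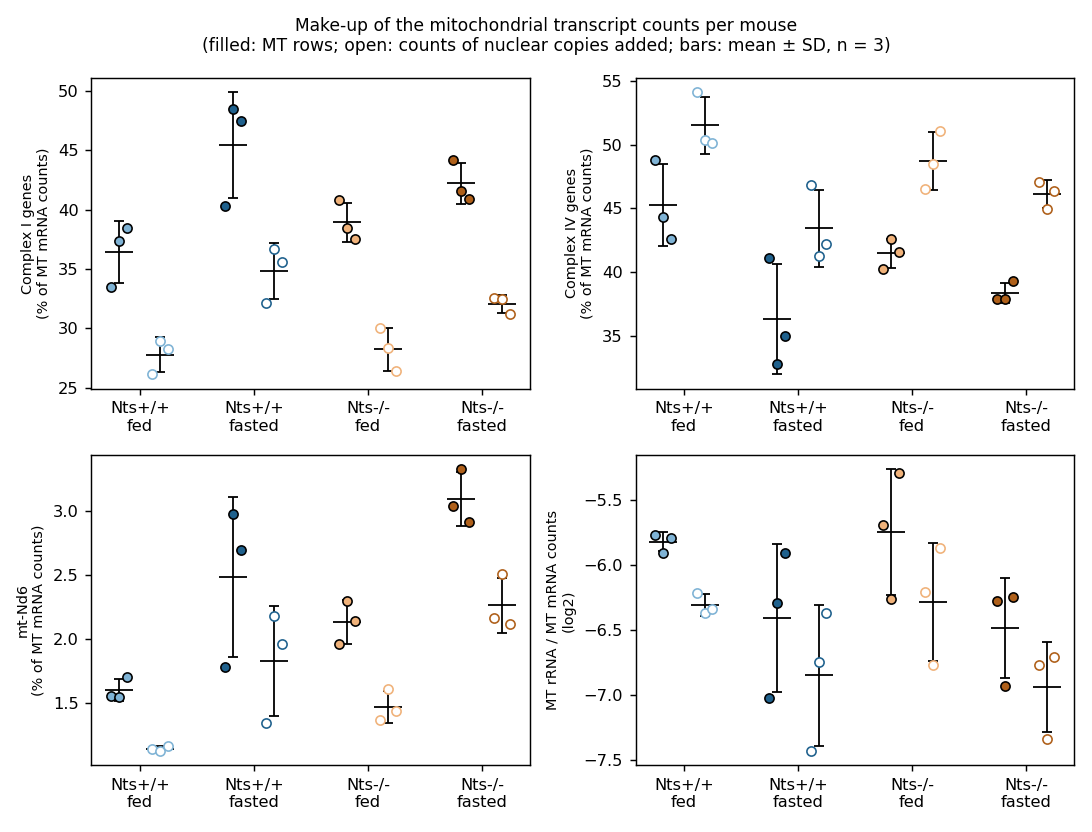
Share of complex I genes, complex IV genes and mt-Nd6 within the counts on the 13 mitochondrial protein-coding genes, and the log2 ratio of ribosomal RNA to protein-coding counts, in each mouse by group with the mean ± SD (n = 3). Filled points use the mitochondrial rows and open points add the nuclear copies, and on both scales the fasted mice lie above the fed mice of their genotype for complex I.

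The total on the mitochondrial genes was not shown to change. The 13 protein-coding genes held 5.09%, 3.63% and 2.20% of library counts in fed and 3.31%, 4.30% and 3.47% in fasted libraries labelled Nts+/+. They held 2.65%, 3.84% and 3.89% when fed and 4.76%, 5.76% and 3.45% when fasted in those labelled Nts-/-. The means were 4.18% ± 0.964 in fasted and 3.55% ± 1.02 in fed livers (SD, n = 6, exact permutation test, p = 0.303, adjusted p = 0.505). With copies added they were 5.69% and 5.03% (adjusted p = 0.549). Both ribosomal RNAs together held 0.0487% ± 0.0129 and 0.0657% ± 0.0245 (adjusted p = 0.403). The log2 ratio of mitochondrially to nuclear-encoded counts of complexes I, III, IV and V was 1.84 ± 0.319 in fasted and 1.68 ± 0.397 in fed livers (adjusted p = 0.612). All of these p-values are from the exact permutation test.

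Within each genotype, fewer genes passed than over both. In the libraries labelled Nts+/+, 1 of 15 genes rose on fasting (mt-Nd5), where 18.1% of all tested genes passed the threshold. In those labelled Nts-/-, 2 of 15 rose (mt-Nd5 and mt-Nd6), where 16.8% passed. None fell in either. With 1 mouse left out the count ran from 0 to 1 in Nts+/+ (0 without mouse 254, 257, 282, 322, 277, 319 or 284) and from 0 to 3 in Nts-/- (0 without mouse 277, 319 or 290, and 1 without mouse 257, 322, 303 or 284). The median log2 fold change of the 15 genes was 0.20 and 0.50, beside -0.0032 and -0.011 over all tested genes. All 3 complex IV genes had negative log2 fold changes in Nts+/+ (-0.28 to -0.23) and positive ones in Nts-/- (0.16 to 0.50). The difference of the fasting responses between genotypes, which shares its control mice with both, passed the threshold for none of the 15 genes in edgeR's quasi-likelihood test (0 at an unadjusted p under 0.05) and for 0 in DESeq2's Wald test. Over all tested genes 0% passed in edgeR, and the share in DESeq2 is not given here.

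The second comparison asked whether the mitochondrial genes differed between genotype labels. None of the 15 passed the threshold in fed livers, in fasted livers or over both feeding states. In each of the 3 contrasts 0 were called by edgeR, 0 had an unadjusted p under 0.05 and 0 were called by DESeq2. The share of all tested genes that passed was 0% in edgeR and is not given here for DESeq2. The median log2 fold change of the 15 genes, libraries labelled Nts-/- against Nts+/+, was -0.053 when fed, 0.30 when fasted and 0.11 over both. The smallest p over both feeding states was that of mt-Nd6, with a log2 fold change of 0.48 ± 0.24 (SE, adjusted p = 0.788). In fasted livers its log2 fold change was 0.67 ± 0.34 (adjusted p = 0.917) and in fed livers 0.30 ± 0.34 (adjusted p = 0.880). mt-Nd5 had 0.21 ± 0.18 over both states (adjusted p = 0.855) and mt-Nd2 -0.03 ± 0.20 (adjusted p = 0.982). Over both feeding states, the SE of 0.17 to 0.51 over the 15 genes sets how small a difference could have been seen. Within 1 feeding state the SE was larger, as for mt-Nd6 with 0.34 beside 0.24.

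In fed livers the widest genotype values belonged to mt-Nd4l and mt-Nd3, and both depended on the copies. mt-Nd4l had a log2 fold change of 1.19 ± 0.72 on its own row (adjusted p = 0.809) and the opposite sign, -0.54 ± 0.32, with Gm10222 (adjusted p = 0.800). Over both feeding states it was 0.24 ± 0.50 on its own row (adjusted p = 0.947) and -0.28 ± 0.22 with the copy (adjusted p = 0.839). mt-Nd3 in fed livers had 1.00 ± 0.72 (adjusted p = 0.834) and 0.36 ± 0.22 (adjusted p = 0.808). None of the 10 shares and ratios passed the threshold between the 6 libraries of each label after correction. The share of complex I genes was 40.6% ± 2.36 in the libraries labelled Nts-/- and 40.9% ± 5.90 in those labelled Nts+/+ (SD, n = 6, exact permutation test, adjusted p = 1.00). The share of mt-Nd6 was 2.61% ± 0.554 and 2.04% ± 0.628 (adjusted p = 0.447), and the 13 protein-coding genes held 4.06% ± 1.08 and 3.67% ± 0.974 of library counts (adjusted p = 0.952), by the same exact permutation test.

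The rows of the nuclear copies gave no call, and they need not measure RNA made from the copies. Reads from bases identical in a gene and its copy match both and were divided between them. Of the 11, 9 passed the filter, and 0 of the 9 passed the threshold for fasting over both genotypes or for genotype over both feeding states in edgeR's quasi-likelihood test. Of all tested genes, 32.8% passed in the first of these contrasts and 0% in the second. With no adjustment, p was under 0.05 for 0 of them on fasting and for 1, Gm13341, between genotypes. Their log2 fold changes for fasting ran from -0.23 ± 0.33 (Gm10222) to 0.69 ± 0.34 (Gm28439, adjusted p = 0.150). Gm10925 and Gm28437, the copies of mt-Atp6 and mt-Co3, had values of 0.19 ± 0.16 and 0.14 ± 0.15.

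The genes that replicate, transcribe and process mitochondrial DNA are encoded in the nucleus, and 4 lists of them were read beside the mitochondrial genes. All 62 listed genes were tested. On fasting over both genotypes, 16 rose and 7 fell, where 32.8% of all tested genes passed the threshold. Their median log2 fold change was 0.11. None of the 62 passed for genotype over both feeding states in edgeR's quasi-likelihood test, and 2 had an unadjusted p under 0.05. Of all 13812 tested genes, 0 passed in that contrast and 859 had an unadjusted p under 0.05.

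The transcription list held 9 genes, of which 3 rose and none fell, a share close to the 32.8% of all tested genes that passed. Polrmt, the mitochondrial RNA polymerase, had 19.0 ± 2.14 TMM-normalized CPM in fed and 23.2 ± 2.50 in fasted livers (SD, n = 6), a log2 fold change of 0.28 ± 0.09 (SE, adjusted p = 0.0335). Tfb2m, which opens the promoter for the polymerase, rose from 31.6 ± 1.90 to 43.4 ± 3.11, with a log2 fold change of 0.46 ± 0.08 (adjusted p = 0.000628). Mrpl12, a protein of the mitochondrial ribosome that also binds the polymerase, had a log2 fold change of 0.45 ± 0.11 (adjusted p = 0.00511). The median log2 fold change of the list was 0.014.

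Of the 14 genes for replication and packaging of the DNA, 4 rose and 3 fell, where 32.8% of all tested genes passed the threshold. Tfam, which packages mitochondrial DNA and activates its promoters, rose from 42.0 ± 5.51 to 52.7 ± 5.85 TMM-normalized CPM (SD, n = 6), a log2 fold change of 0.33 ± 0.10 (SE, adjusted p = 0.0269). Twnk, the replicative helicase (listed as Peo1), had a log2 fold change of 0.12 ± 0.10 (adjusted p = 0.363). Atad3a, an inner membrane ATPase found with nucleoids, rose by a log2 fold change of 0.60 ± 0.10 (adjusted p = 0.000595). Primpol, a primase that restarts stalled replication, fell from 5.13 ± 0.771 to 2.17 ± 0.263 (log2 fold change -1.24 ± 0.14, adjusted p = 2.75e-05). Mgme1, an exonuclease that trims the ends of replicating DNA, also fell (-0.73 ± 0.12, adjusted p = 0.000578).

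Among 28 genes for RNA processing and modification, 7 rose and 3 fell, with a median log2 fold change of 0.19. This share was close to the 32.8% of all tested genes that passed the threshold. Hsd17b10, a dehydrogenase of isoleucine breakdown that is also part of the mitochondrial RNase P, which cuts transfer RNAs out of the long transcripts, rose from 84.9 ± 8.21 to 292 ± 64.9 TMM-normalized CPM (SD, n = 6). Its log2 fold change was 1.78 ± 0.15 (SE, adjusted p = 2.31e-06). Tbrg4, an RNA-binding protein of the FASTK family, rose by 0.75 ± 0.09 (adjusted p = 5.51e-05). Nsun4, a methyltransferase of the small ribosomal RNA that mt-Rnr1 encodes, fell, with a log2 fold change of -0.53 ± 0.11 (adjusted p = 0.00186).

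Of the 11 genes for RNA stability, polyadenylation and decay, 2 rose and 1 fell, a share near the 32.8% of all tested genes that passed the threshold. Lrpprc, which protects mitochondrial messengers and supports their polyadenylation, rose from 95.2 ± 7.02 to 126 ± 8.68 TMM-normalized CPM (SD, n = 6), a log2 fold change of 0.40 ± 0.08 (SE, adjusted p = 0.00131). Grsf1, an RNA-binding protein of the mitochondrial RNA granules that binds the light-strand transcript of mt-Nd6, rose by 0.43 ± 0.08 (adjusted p = 0.000739). Pnpt1, the nuclease of the mitochondrial RNA degradosome, fell, with a log2 fold change of -0.43 ± 0.09 (adjusted p = 0.00292).

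The nuclear-encoded subunits of the same complexes rose on fasting in 12 of 73 cases and fell in none, with a median log2 fold change of 0.17 over both genotypes. This count lay below the 32.8% of all tested genes that passed in this contrast. By complex, 4 of 36 genes rose for complex I (median 0.12), 4 of 9 for complex III (0.21), 0 of 11 for complex IV (0.17) and 4 of 17 for complex V (0.26). The median was 0.035 in the libraries labelled Nts+/+ and 0.31 in those labelled Nts-/-, beside 0.20 and 0.50 for the 15 mitochondrial genes. With the Nts+/+ label 1 of the 73 rose and 3 fell, where 18.1% of all tested genes passed the threshold. With the Nts-/- label 3 rose and 0 fell, where 16.8% passed. The difference of the fasting responses passed for 0 of the 73 and for 0% of all tested genes.

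Marker genes of hepatocytes, summed over 8 genes, lay between 127390 and 150375 CPM in all libraries, and none of the 8 was at 0. Fasted livers had lower summed levels of some other cell types. The 7 sinusoidal endothelial markers ran from 192 to 273 CPM in fed and from 146 to 186 CPM in fasted livers, the 7 stellate cell markers from 429 to 542 and from 332 to 385, and the 5 cholangiocyte markers from 33.9 to 50.5 and from 13.3 to 27.7. None of these markers was at 0 over all libraries. Spp1 held most counts of the cholangiocyte list, 8531 over all mice, and Sox9 came next with 977. The 8 Kupffer cell markers overlapped (373 to 638 and 273 to 531 CPM), as did the 7 lymphocyte and the 5 erythroid markers. Of the pancreas, skeletal muscle and adipocyte lists, 3 of 6, 2 of 5 and 2 of 5 genes had 0 counts, and the muscle and adipocyte sums were at most 0.891 and 0.254 CPM. The pancreas sum ran from 7.77 to 13.7 CPM in fed and from 2.74 to 5.16 CPM in fasted livers. It came almost wholly from Cela1, with 2542 counts over all mice beside 2.45 for Amy2a5 and 1 for Prss2. The part of these cells in the fasting differences was not tested.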

How the data were processed

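The authors deposited 1 table of expected counts per gene from liver RNA-seq of 12 mice, which are estimates that need not be whole and are not scaled between libraries. The submitters' processing notes name Trimmomatic, RSEM and GRCm38. RSEM divides reads that match several genes, which affects the mitochondrial genes and their nuclear copies. Counts were rounded and fitted in edgeR 4.0.16 (R 4.3.3) with filterByExpr, TMM and robust quasi-likelihood tests in 1 model of 4 group means (13812 genes). Shares and ratios per mouse used the rounded counts outside this model and were compared by two-sided exact permutation, adjusted over 10 values per comparison. Copies were found by blastn 2.17.0+ against GENCODE vM39 transcripts (at least 95% identity, 100 bases) and matched by Ensembl identifier. The edgeR steps were tested on simulated counts. Genes named are all tested mitochondrial genes and copies, Tfam, Polrmt, Twnk, Lrpprc, and the 3 genes of each list of mitochondrial DNA and RNA factors with the smallest p on fasting. The members and lists were chosen with earlier results of these data known. The steps with copies added were chosen after seeing the data. Alternatives were other normalizations, no filter, DESeq2 1.42.0, the 6 mice compared, protein-coding genes only, no nuclear copies and an adjusted p under 0.10. Shares were also run with other denominators, unrounded counts and rank sums. Each mouse was left out in turn for both. Floors cover counting error only.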

Additional observations from a re-analysis of the deposited data

Results flagged for a closer look

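Each of 50 sets of 6 fed or 6 fasted mice, over the 10 shares and ratios and the 15 gene levels, was screened for a highest or lowest mouse set apart from the others by more than 0.625 of the range (Dixon's 95% value for 6 samples). Chance alone flags about 1 in 20, and 4 were found. Fed mouse 319, labelled Nts-/-, had 2.49e-05% of its counts on the transfer RNA genes, where the other fed mice had between 0 and 3.87e-06%. Fasted mouse 265, labelled Nts+/+, had 178 TMM-normalized CPM on mt-Rnr2 (others 313 to 373) and 100.01 on mt-Nd3 (others 293 to 362). Fasted mouse 282, labelled Nts+/+, had 426 TMM-normalized CPM on mt-Nd4l, where the other fasted mice had between 42.4 and 178. The values of mt-Nd3 and mt-Nd4l moved with the division of counts between row and copy. Mouse 265 held 18.1% of the joint counts of mt-Nd3 on the mitochondrial row, and mouse 282 held 79.6% of those of mt-Nd4l.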

How the results depend on the processing

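No paired analysis was run, because the sample labels name no litter or pair of mice. Any effect of litter was not tested. The counts of genes called were small, so single calls moved them. The share of all tested genes that passed in each alternative setting, or with 1 mouse left out, is not given here. These counts therefore have no background beside them. For fasting in Nts+/+ (1 gene), the count was 0 with library totals only, with TMM factors and totals from genes outside the mitochondrial DNA and with no filter on low counts, and 2 with an adjusted p under 0.10 and with DESeq2. It ran from 0 to 1 with 1 mouse left out. For fasting in Nts-/- (2 genes) it was 1 with library totals only and with no filter, and 0 to 3 with 1 mouse left out. Over both genotypes (3 genes) it was 2 to 5 with 1 mouse left out, and 5 came without mouse 323. The genotype contrasts and the difference of responses stayed at 0 in every setting run. The causes were not tested.

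The fasting differences in the shares of complex I, complex IV and mt-Nd6 and in the log2 ratio of ribosomal RNA to protein-coding counts stayed past the threshold in every setting run. With 1 mouse left out they lay between 5.20 and 6.83 percentage points, -6.78 and -4.93, 0.817 and 1.13, and, for the ratio, -0.77 and -0.55. Values near 0 turned sign with 1 mouse left out. For fasting these were the transfer RNA share (-3.11e-06 to 1.88e-06) and complex III (-0.340 to 0.354). For genotype they were the ribosomal RNA share (-0.00413 to 0.0114), the log2 ratio of mitochondrial to nuclear subunits (-0.023 to 0.21), complex I (-1.85 to 1.15), complex IV (-2.45 to 0.762) and the log2 ratio of ribosomal RNA to protein-coding counts (-0.18 to 0.16).

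Adding the nuclear copies turned the log2 fold change of mt-Co3 over both genotypes to 0.087 and that of mt-Nd4l in Nts+/+ to -0.14. With 1 mouse left out, the value over both genotypes crossed 0 for mt-Rnr2 (-0.23 to 0.18), mt-Co1 (-0.038 to 0.32), mt-Co2 (-0.064 to 0.32) and mt-Co3 (-0.14 to 0.097). With library totals only, mt-Nd2 over both genotypes had 0.53 (adjusted p = 0.054). The transfer RNAs, 19 of 22 with 0 counts in all 12 mice, were too low to be compared, and the cause was not tested.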
